A study of Mus musculus with 4 samples.

Results

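The S100 genes examined here encode small calcium-binding proteins, and the 8 members were the rows named S100a8, S100a9, S100a6, S100a11, S100a10, S100a4, S100a13 and S100a1 among 54532 genes of the deposited count table. RNA had been sequenced from bone marrow neutrophils of wild-type mice, in 2 libraries of cells given DMSO, a solvent, and 2 libraries of cells given amyloid-beta 40 (Aβ40), a fragment of the amyloid precursor protein. The Aβ40 cells received 20 µg/ml for 4 h, per the series' design text, which gives no duration for the DMSO cells. The series concerns NETs (neutrophil extracellular traps), webs of chromatin that carry granule and cytosolic proteins, and their induction by Aβ40. The sources used here do not give strain, sex, age or neutrophil purity. They also do not say if a group's libraries are separate mice or cultures. The p-values therefore speak of the spread among these 4 samples, which may be technical.

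S100 proteins fold around a pair of EF-hand loops, helix-loop-helix units that hold calcium, and most work as dimers. S100A8 and S100A9 join into calprotectin, which fills much of the neutrophil cytosol, binds zinc and manganese, is found on NETs and can act on Toll-like receptor 4 and the receptor RAGE once outside the cell. The other members mostly act inside cells, where calcium lets them grip partners such as annexins and myosin.

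All 8 members lie on chromosome 3 (mm10). S100a1 and S100a13 sit back to back at one end of the array, S100a4, S100a6, S100a8 and S100a9 follow, and S100a11 and S100a10 lie 2824766 bases beyond S100a9. Start windows from RefSeq (GRCm38.p6, the assembly behind mm10) were found for 7 of the 8, all but S100a10. Those of S100a9 and S100a8 are shown because these genes had the most counts of the whole table. For S100a8 only the 157 bases ahead of the deposited gene are printed, and the window searched runs on into that gene. The stretch between S100a1 and S100a13 is shown because it parts neighbours whose levels did not keep a fixed ratio. Each sequence is written 5′ to 3′ on the strand stated. Capitals mark letters of the C/EBP type (TTGCNNAA or TTGCNNCA) and of the PU.1 core type (GAGGAA), searched on both strands with overlaps allowed.
S100a9, upstream of the gene, chr3:90695722-90695971, minus strand: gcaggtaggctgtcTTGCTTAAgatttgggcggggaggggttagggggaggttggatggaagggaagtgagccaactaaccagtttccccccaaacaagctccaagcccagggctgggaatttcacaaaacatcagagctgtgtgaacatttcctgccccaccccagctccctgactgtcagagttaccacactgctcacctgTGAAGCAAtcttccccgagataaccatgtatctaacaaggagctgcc
S100a8, upstream of the gene, chr3:90668821-90668977, plus strand: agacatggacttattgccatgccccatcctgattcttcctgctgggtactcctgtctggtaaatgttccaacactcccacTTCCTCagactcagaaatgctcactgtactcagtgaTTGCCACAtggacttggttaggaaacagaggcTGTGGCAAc
S100a1 to S100a13, between the genes, chr3:90514393-90514434, plus strand: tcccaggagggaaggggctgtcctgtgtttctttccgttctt
In the 250 bases ahead of each RefSeq start, S100a9 and S100a8 held 2 matches each of the C/EBP type, and S100a1 was the other member with one. A C/EBP match stood in 3 of the 7 member windows and in 18.1% of 32851 such windows genome-wide. The PU.1 letters occurred 2 times ahead of S100a8, once in the part shown, and 1 time ahead of S100a11, against 23.3% of windows with a match. These are descriptions of letters, not of bound sites. The gap between S100a1, on the minus strand, and S100a13, on the plus strand, was 42 bases long.

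Total counts per library ran from 17212264 to 19524125. Over tested genes the Spearman correlation was 0.978 between the DMSO libraries and 0.987 between the Aβ40 libraries, and DMSO 1 was closer to Aβ40 2 (0.982) than to DMSO 2. Counts differed far beyond sampling noise within both pairs (chi-square of 55.6 and 16.9 for each degree of freedom), so neither pair was a library deposited again. Neutrophil markers were abundant, with 11 of 11 tested and a summed level of 45175 to 60886 CPM (counts scaled to library size, with TMM factors) with DMSO and 57539 to 57543 with Aβ40. Early neutrophil markers (8 of 8 tested) summed to between 8396 and 8955 CPM with DMSO and between 9230 and 10826 with Aβ40. Markers of other marrow cells were present in every library. Their sums with DMSO and with Aβ40 were 144 to 145 and 472 to 487 CPM for B cells (6 of 10 called higher) and 1382 to 1635 and 3609 to 3644 CPM for eosinophils (1 of 9 called higher). They were 83.2 to 89.2 and 132 to 138 CPM for T and NK cells (1 of 9 tested called higher), and 2806 to 2850 and 3227 to 3720 CPM for monocytes and macrophages (0 of 12 called). Basophil and mast cell markers (6 tested) summed to 455 to 517 and 536 to 540 CPM, erythroid markers (8 tested) to 2161 to 5097 and 3573 to 3712 CPM, and platelet markers (4 of 5 tested) to 28.6 to 34.1 CPM over all libraries, with 0 called in each. These marker calls are by edgeR at a Benjamini-Hochberg adjusted p under 0.05, which 0.126% of all tested genes passed. The platelet gene Gp1bb was the single marker at 0 in every library.

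Calprotectin transcripts dominated the family. In deposited FPKM, which divide counts by gene length, S100a9 averaged 78638 and S100a8 52968 over the 4 libraries, followed by S100a11 at 2541, S100a6 at 1175, S100a10 at 296, S100a13 at 86.3, S100a1 at 47.5 and S100a4 at 5.61. By total counts S100a9 ranked 1 and S100a8 ranked 2 of all genes, S100a6 ranked 44, S100a11 ranked 74 and S100a4 ranked 10043. The order of the family by FPKM was the same in each library. Ranges over libraries overlapped for S100a9 (52510 to 90489 FPKM) and S100a8 (43033 to 60669 FPKM), and for S100a13 (47.2 to 104 FPKM) and S100a1 (39.6 to 53.1 FPKM). The other neighbours in the order did not overlap. Lengths are those of the deposited table, 522 bases for S100a9, 694 for S100a8 and 1367 for S100a6. With counts unchanged, another length would shift the FPKM of a gene in all libraries alike.

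**Figure D1:**
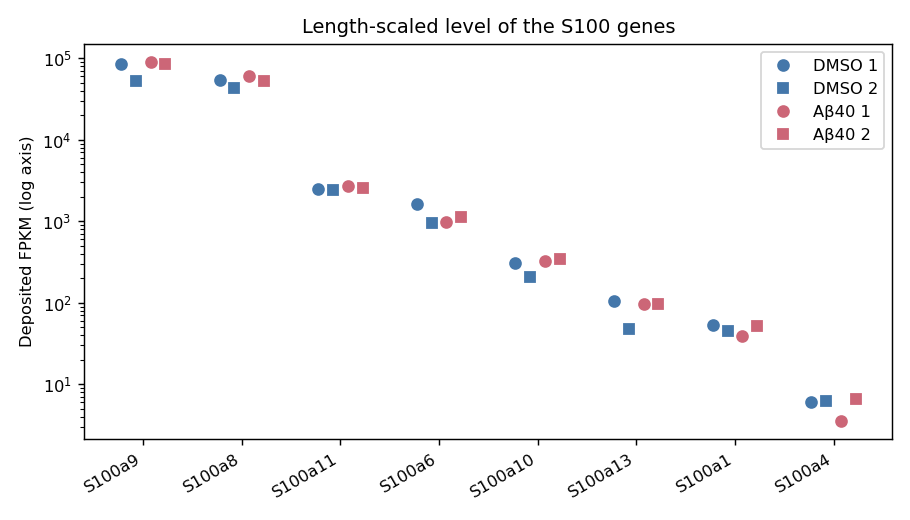
Deposited FPKM (log axis) of the 8 S100 genes in each library, with blue for DMSO, red for Aβ40, circles for replicate 1 and squares for replicate 2. S100a9 and S100a8 lie at 43033 FPKM or more in every library, while S100a4 lies at 3.54 to 6.64.

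No member passed the test for a difference between Aβ40 and DMSO. In the edgeR quasi-likelihood fit over 13479 genes, 0 of 8 members passed a Benjamini-Hochberg adjusted p of 0.05, where 0.126% of all tested genes passed (17 higher, 0 lower). The unadjusted edgeR p was under 0.05 for 0 members, against 877 genes higher and 771 lower of the 13479 tested. Limma-voom called 0 members and 25 of all tested genes. Limma on log2 FPKM called 0 members and 0 of all tested genes, so its 0 is not particular to the members. DESeq2 called 0 members as well, where it called 1.18% of the genes it tested. All 8 members passed the filter on low counts. Log2 fold changes of Aβ40 over DMSO were positive for 5 members and negative for 3, with a median of 0.18 against 0.01 over all tested genes. Without DMSO 2 the members' median was -0.02, and without DMSO 1 it was 0.29. The groups did not overlap for 3 of 8 members, against 45.1% of tested genes. For all 3, S100a9, S100a11 and S100a10, Aβ40 was the higher group by CPM, an order that 23.2% of tested genes had. By share of counts S100a11 overlapped, at 0.134% in DMSO 2 and 0.132% in Aβ40 2. Aβ40 was the lower group for 0 of 8, against 21.9% of tested genes. The marker sums in CPM of B cells, eosinophils, T and NK cells, monocytes and macrophages, basophils and mast cells, and early neutrophils also lay higher in both Aβ40 libraries. Single markers did not all follow. Without overlap, Aβ40 was higher for 6 and lower for 3 of 12 monocyte and macrophage markers. It was higher for 3 and lower for 1 of 8 early neutrophil markers, and higher for 1 and lower for 4 of 11 neutrophil markers. By share of counts the early neutrophil sum overlapped (0.968% in DMSO 2, 0.921% in Aβ40 2). The part of these cells in the S100 levels was not tested. By CPM, DMSO 2 was the lowest of the 4 libraries for 6 of the 8 members. It held that position in 28.9% of tested genes. By share of counts, S100a11 was lowest in DMSO 1 (0.121%, with 0.134% in DMSO 2). S100a6 was lowest by share in Aβ40 1 (0.134%, with 0.143% in DMSO 2). The summed CPM of markers of neutrophils, monocytes, T and NK cells, eosinophils, basophils and erythroid cells were also lowest in DMSO 2. By share of counts, DMSO 1 was lowest for monocytes and macrophages (0.272%, with 0.303% in DMSO 2). The same held for T and NK cells (0.00853%, with 0.00899% in DMSO 2). The part of these cells in the low S100 levels of DMSO 2 was not tested either. In bulk RNA, fewer cells of a type and less RNA per cell cannot be told apart.

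**Figure D2:**
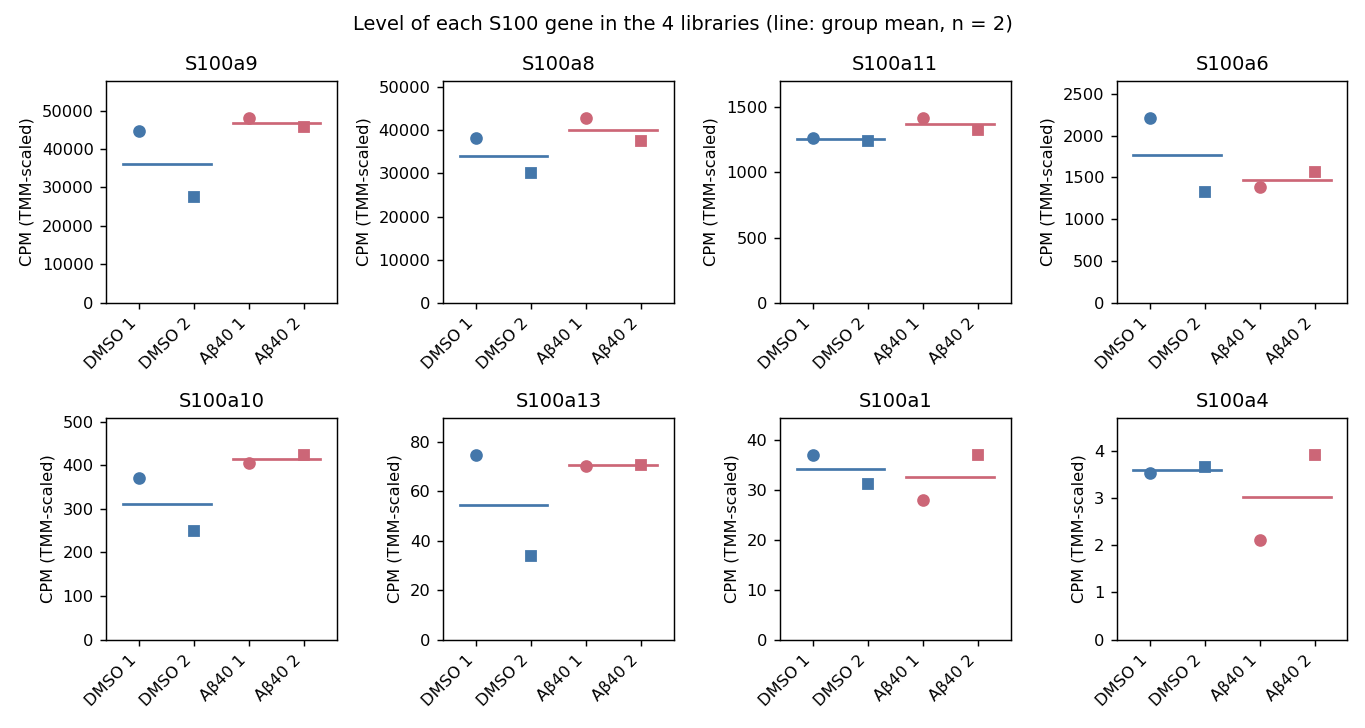
CPM (TMM-scaled) of each S100 gene in the 4 libraries, with blue for DMSO, red for Aβ40, and a line at each group mean (n = 2). DMSO 2 is the lowest point for S100a9, S100a8, S100a11, S100a6, S100a10 and S100a13.

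S100a9 (ENSMUSG00000056071, chromosome 3, 90692632 to 90695721), the calprotectin chain that carries the longer tail, stood at 44611 CPM (DMSO 1), 27539 (DMSO 2), 48046 (Aβ40 1) and 45639 (Aβ40 2). DMSO 1 and both Aβ40 libraries were close to each other, and DMSO 2 alone was low. Mean levels were 36075 ± 12071 CPM (DMSO) and 46842 ± 1702 CPM (Aβ40; SD, n = 2 each). The log2 fold change was 0.38 (SE 0.29, 95% interval -0.27 to 1.03; edgeR quasi-likelihood, Benjamini-Hochberg adjusted p = 0.625), which spans folds from 0.828 to 2.04. Without DMSO 2 the log2 fold change was 0.06, and without DMSO 1 it was 0.76 (edgeR adjusted p = 0.000163, with 8.93% of tested genes called in that fit). Each of those fits leaves 1 DMSO library, which is assumed to vary like the Aβ40 pair.

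S100a8 (ENSMUSG00000056054, chromosome 3, 90668978 to 90670035), its partner chain, stood at 38208 CPM (DMSO 1), 30005 (DMSO 2), 42826 (Aβ40 1) and 37442 (Aβ40 2). The groups overlapped, since DMSO 1 lay above Aβ40 2. The log2 fold change was 0.23 (SE 0.25, 95% interval -0.33 to 0.80; edgeR adjusted p = 0.738). It was 0.06 without DMSO 2 and 0.42 without DMSO 1, where the edgeR adjusted p was 0.0749.

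As a share of all counts, S100a9 took 4.26% (DMSO 1; 95% exact Clopper-Pearson interval 4.254% to 4.272%), 2.98% (DMSO 2), 4.64% (Aβ40 1) and 4.55% (Aβ40 2). S100a8 took 3.65% (DMSO 1), 3.24% (DMSO 2), 4.14% (Aβ40 1) and 3.74% (Aβ40 2). These intervals cover counting error only, and at this depth counting error was far smaller than the distance between the DMSO libraries. All 8 members together took 8.29% (DMSO 1), 6.53% (DMSO 2), 9.10% (Aβ40 1) and 8.63% (Aβ40 2). The Aβ40 libraries were the 2 highest, with means of 7.41% ± 1.25 and 8.87% ± 0.334 (SD, n = 2 each). The difference of 1.46 percentage points gave p = 0.333 in the exact 2-sided permutation test, the smallest p that 2 against 2 libraries allow. Without DMSO 2 the difference was 0.575 points, and without DMSO 1 it was 2.34 points.

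The balance of the calprotectin chains was compared within libraries, where scaling plays no part. The count ratio of S100a9 to S100a8 was 1.17 (DMSO 1), 0.918 (DMSO 2), 1.12 (Aβ40 1) and 1.22 (Aβ40 2). The groups overlapped, and DMSO 2 was the single library with fewer S100a9 than S100a8 counts. On the log2 scale the ratio was higher with Aβ40 by 0.18 (exact 2-sided permutation test, p = 0.667). Leaving out DMSO 2 brought that difference to 0.002, and leaving out DMSO 1 to 0.35.

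The calprotectin chains were also set against the other 6 members. Their summed counts were 20.9 times those of the other 6 (DMSO 1), 20.0 times (DMSO 2), 27.5 times (Aβ40 1) and 24.2 times (Aβ40 2). In this ratio the DMSO libraries were close together and both Aβ40 libraries lay above them. The share of counts of the other 6 overlapped between groups. It was 0.378% (DMSO 1), 0.311% (DMSO 2), 0.319% (Aβ40 1) and 0.342% (Aβ40 2), and most of it came from S100a6 and S100a11. The log2 ratio was higher with Aβ40 by 0.34, against a pooled SD of 0.10 (exact 2-sided permutation test, p = 0.333, again the smallest possible). It stayed between 0.25 and 0.43 when each library was left out in turn. These permutation tests on the share and both ratios form a family of 3, and their Benjamini-Hochberg adjusted values were 0.5, 0.667 and 0.5.

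**Figure D3:**
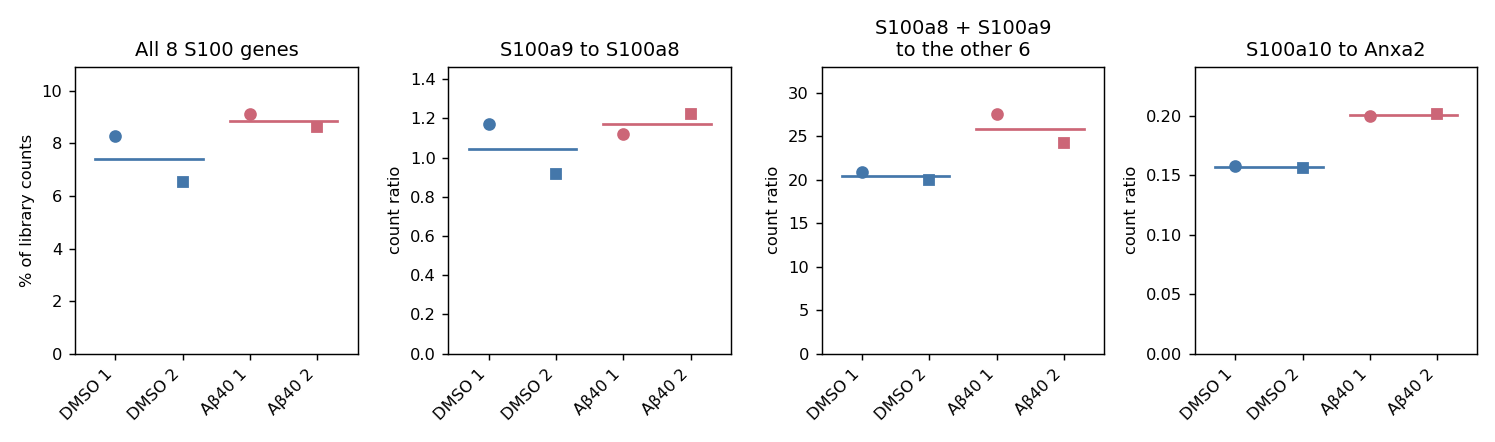
Percent of library counts taken by the 8 S100 genes, and count ratios of S100a9 to S100a8, of S100a8 plus S100a9 to the other 6, and of S100a10 to Anxa2, in the 4 libraries (blue DMSO, red Aβ40, lines at group means, n = 2). The S100a10 to Anxa2 ratio is 0.156 to 0.158 with DMSO and 0.200 to 0.201 with Aβ40, while the S100a9 to S100a8 ratio overlaps.

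Among the annexin-binding members, S100a10 (ENSMUSG00000041959, chromosome 3, 93555080 to 93564643), which binds annexin A2 without needing calcium, stood at 371 CPM (DMSO 1), 250 (DMSO 2), 406 (Aβ40 1) and 424 (Aβ40 2). Both Aβ40 libraries lay above DMSO 1, and DMSO 2 lay well below it. Its log2 fold change of 0.42 (SE 0.22, 95% interval -0.07 to 0.91) came with the lowest p of the family, 0.087 unadjusted (edgeR; Benjamini-Hochberg adjusted p = 0.472). It was 0.15 without DMSO 2 and 0.73 without DMSO 1 (edgeR adjusted p = 0.00336). The share of counts was 0.0355% (DMSO 1), 0.027% (DMSO 2), 0.0393% (Aβ40 1) and 0.0423% (Aβ40 2).

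Anxa2, the annexin that pairs with S100A10, was at 1976 ± 524 CPM in the DMSO group and 2072 ± 60.9 in the Aβ40 group (SD, n = 2 each), with log2 fold change 0.07 (SE 0.23). The count ratio of S100a10 to Anxa2 was 0.158 (DMSO 1), 0.156 (DMSO 2), 0.200 (Aβ40 1) and 0.201 (Aβ40 2). The groups did not overlap in this ratio, and 45.1% of tested genes did not overlap in level. It was computed after the files had been seen, with 3 other partner ratios, and was not tested. Of those, S100a11 to Anxa1 (0.222, 0.270, 0.210 and 0.241 in DMSO 1, DMSO 2, Aβ40 1 and Aβ40 2) and S100a4 to Myh9 overlapped between groups. The ratio of S100a6 to Cacybp was 36.0 (DMSO 1), 23.7 (DMSO 2), 15.3 (Aβ40 1) and 23.3 (Aβ40 2). It did not overlap either, with Aβ40 lower, though DMSO 2 and Aβ40 2 were nearly level.

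S100a11 (ENSMUSG00000027907, chromosome 3, 93520488 to 93526287), a partner of annexin A1, had the narrowest range of the family over the 4 libraries. It stood at 1263 CPM (DMSO 1), 1241 (DMSO 2), 1414 (Aβ40 1) and 1325 (Aβ40 2). The groups did not overlap in CPM. They overlapped in the share of counts, at 0.121% (DMSO 1), 0.134% (DMSO 2), 0.137% (Aβ40 1) and 0.132% (Aβ40 2). The log2 fold change was 0.13 (SE 0.19, 95% interval -0.29 to 0.55; edgeR adjusted p = 0.818). It ran from 0.08 to 0.16 when each library was left out in turn.

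S100a6 (ENSMUSG00000001025, chromosome 3, 90612882 to 90624181), also called calcyclin for its link to dividing cells, stood at 2211 CPM (DMSO 1), 1322 (DMSO 2), 1381 (Aβ40 1) and 1569 (Aβ40 2). Here DMSO 1 was the library apart, at 1.67 times the level of DMSO 2, and the other 3 were close. The log2 fold change was -0.26 (SE 0.26, 95% interval -0.85 to 0.33; edgeR adjusted p = 0.72). Without DMSO 2 it was -0.60 (edgeR adjusted p = 0.0145, with 7.16% of tested genes called), and without DMSO 1 it turned to 0.16.

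**Figure D4:**
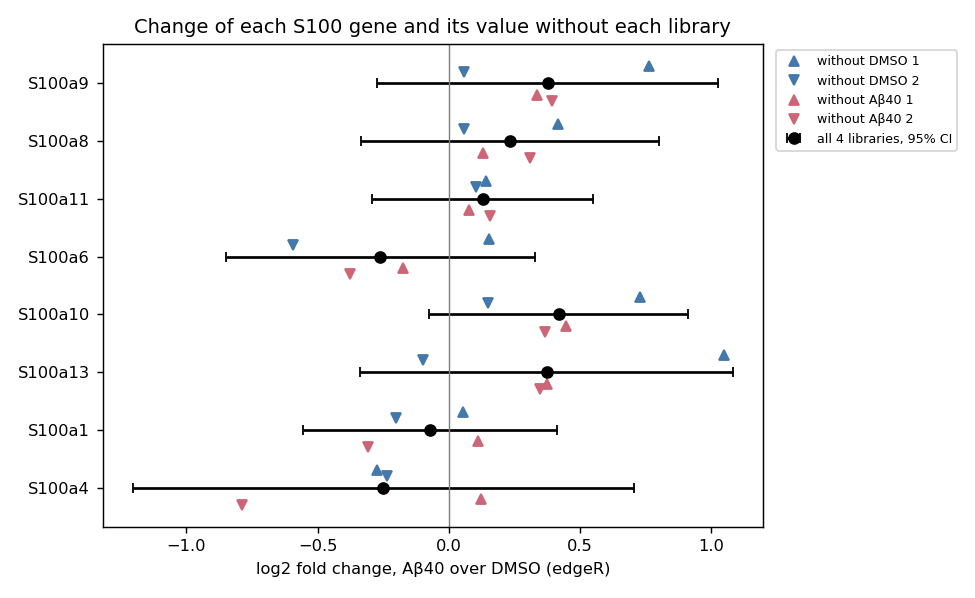
Log2 fold change of Aβ40 over DMSO for each S100 gene (edgeR), with its 95% interval from all 4 libraries (black) and its value without each library (triangles). All 8 intervals include 0, and the values without DMSO 1 and without DMSO 2 lie on opposite sides of 0 for S100a6, S100a13 and S100a1.

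S100a13 (ENSMUSG00000042312, chromosome 3, 90514435 to 90524581), which helps export interleukin-1 alpha and a fibroblast growth factor that lack a signal peptide, showed the widest split of the DMSO libraries. It stood at 74.7 CPM (DMSO 1), 33.9 (DMSO 2), 70.2 (Aβ40 1) and 70.5 (Aβ40 2). DMSO 1 was 2.21 times DMSO 2 and lay above both Aβ40 libraries. The log2 fold change was 0.37 (SE 0.31, 95% interval -0.34 to 1.09; edgeR adjusted p = 0.656). It was -0.10 without DMSO 2 and 1.05 without DMSO 1 (edgeR adjusted p = 5.51e-05).

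S100a1 (ENSMUSG00000044080, chromosome 3, 90511034 to 90514392), best known from heart muscle where it tunes calcium handling, stood at 37.0 CPM (DMSO 1), 31.2 (DMSO 2), 28.0 (Aβ40 1) and 36.9 (Aβ40 2). The groups overlapped, with a log2 fold change of -0.07 (SE 0.21, 95% interval -0.56 to 0.41; edgeR adjusted p = 0.92). Although the 42 bases printed above are all that part this gene from S100a13, the ratio of S100a13 to S100a1 in FPKM was 1.96 (DMSO 1), 1.05 (DMSO 2), 2.44 (Aβ40 1) and 1.85 (Aβ40 2). DMSO 2 was low in this ratio, and the other 3 libraries lay at 1.85 or above. The sign for S100a1 turned without DMSO 1 (0.06) and without Aβ40 1 (0.11).

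S100a4 (ENSMUSG00000001020, chromosome 3, 90603771 to 90606045), a myosin-binding member common in motile cells, was scarce. It had 66 counts (DMSO 1), 68 (DMSO 2), 36 (Aβ40 1) and 75 (Aβ40 2), or 3.54, 3.66, 2.11 and 3.92 CPM. Aβ40 1 was low and Aβ40 2 was the highest of the 4, so the groups overlapped. The log2 fold change of -0.25 had the widest interval of the family (SE 0.42, 95% interval -1.20 to 0.70; edgeR adjusted p = 0.85), which spans folds from 0.434 to 1.63. Without Aβ40 1 the sign turned, to 0.12.

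The members did not share one profile over the 4 libraries. Likeness was measured as the root mean square difference of log2 CPM after centring each gene on its mean over the 4 libraries. The closest pair was S100a9 and S100a10, at 0.067, followed by S100a8 and S100a11 at 0.132 and S100a8 and S100a9 at 0.157. The neighbours S100a13 and S100a1 were at 0.446, and the farthest pair, S100a13 and S100a4, at 0.662. Among 3360 other protein-coding genes averaging 50 CPM or more, those most like S100a9 were Ndufb5 (0.013), Hat1 (0.017) and Cycs (0.022), and those most like S100a8 were Exosc8 (0.018), Slc30a5 (0.020) and Casp1 (0.023). Closest to S100a10 were Rps6, Serpinb6a and Nedd8 (0.019 to 0.028), to S100a11 Mcm4, Kdm5a and Dapp1 (0.011 to 0.017), and to S100a13 Pbdc1, Rpl11 and Myl6 (0.022 to 0.045). Closest to S100a6 were Eid1, Slpi and Nudt3 (0.028 to 0.044), and to S100a1 Hnrnpab, Stx4a and Zscan29 (0.025 to 0.032). For S100a4 the nearest genes, Laptm5, Igfbp4 and Def6, were no closer than 0.139. With 4 libraries many genes can lie this close, so these names are a description of level only.

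The remaining S100 genes were nearly silent. Of 10 listed, 9 were in the table and 3 passed the filter on low counts, S100a2, S100a7a and S100a3, with 5 to 33 counts per library and 0 called. S100a2 had 8 counts (DMSO 1), 16 (DMSO 2), 9 (Aβ40 1) and 33 (Aβ40 2). It overlaps S100a3 on the same strand, so reads of this pair may not have been told apart. S100a14, S100a5 and S100a16 had at most 11 counts in a library, S100b had 1 count in all, and S100g and S100z had 0.

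Of 14 receptors and surface partners of calprotectin 0 were called by edgeR and 1 by DESeq2, with a median log2 fold change of -0.12. Without DMSO 1 the median was -0.21 with 1 called, and without DMSO 2 it was 0.004 with 4 called, in fits that called 8.93% and 7.16% of all tested genes. Without Aβ40 1 and Aβ40 2 it was -0.12 and -0.07, with 0 called. Aβ40 was the lower group without overlap for 6 and the higher for 3, orders that 21.9% and 23.2% of tested genes had. Itgb2, the beta chain of the integrin whose activation calprotectin promotes, was at 908 ± 251 and 936 ± 91.3 CPM with DMSO and Aβ40 (SD, n = 2 each), Cd14, a co-receptor of Toll-like receptor 4, at 386 ± 5.44 and 334 ± 20.9 CPM, and Itgam, the alpha chain, at 906 ± 61.8 and 716 ± 5.19 CPM. Of 15 intracellular partners 0 were called, with a median of 0.07. Leaving out DMSO 1 gave a median of 0.02 with 2 called, and leaving out DMSO 2 gave 0.045 with 3 called. Leaving out either Aβ40 library gave 0.02 with 0 called. Anxa1, the most abundant of them, was at 5149 ± 775 and 6109 ± 866 CPM (SD, n = 2 each) and Anxa5, a further annexin, at 475 ± 59.3 and 467 ± 21.6 CPM.

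Of 9 transcription factors tied to myeloid S100 genes or granulocyte maturation 0 were called, and 7 lay below 0 on the log2 scale, with a median of -0.37. The groups did not overlap for 6 of the 9, all with Aβ40 lower, where 21.9% of tested genes had that order. Cebpb, which drives emergency granulocyte production, was at 413 ± 178 and 261 ± 58.4 CPM (SD, n = 2 each), with log2 fold change -0.66 (SE 0.30). Cebpe, needed for late granule genes, was at 0.01 (SE 0.19), and Spi1, the gene of PU.1, at -0.37 (SE 0.18). The median of these factors was -0.19 without DMSO 1 and -0.32 without DMSO 2. Leaving out Aβ40 1 gave -0.325, and leaving out Aβ40 2 gave -0.393. Among 19 other EF-hand proteins 0 were called, with a median of -0.03. It was -0.16 without DMSO 1 and 0.01 without DMSO 2. Without Aβ40 1 and Aβ40 2 it was -0.09 and -0.06. Without overlap, Aβ40 was higher for 5 and lower for 6, against 23.2% and 21.9% of tested genes. Calm2, a calmodulin gene, was at 0.43 (SE 0.22), and Lcp1, the actin-bundling plastin of leukocytes, at -0.14 (SE 0.20).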

How the data were processed

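Counts and FPKM were analysed for the 4 libraries. The authors deposited raw counts per gene, whole numbers used as they are, and FPKM, which on the values equal count over gene length over a library size that differs from the column total. HISAT2 2.0.5, featureCounts 1.5.0-p3 and the mm10 build are listed, per the submitters' processing notes. The sources used here do not give strandedness or the annotation.

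Counts were fitted in R 4.3.3 with edgeR 4.0.16 (filterByExpr, TMM, quasi-likelihood test of group, 2-sided, Benjamini-Hochberg over 13479 genes, called under 0.05). The fit had 2 residual and 6.88 prior degrees of freedom. It was also run on simulated counts that gave every gene the same relative spread in both groups, which these data need not have. Shares have Clopper-Pearson intervals, and single values used exact permutation tests (scipy 1.17.1). Alternatives were other scalings and filters, DESeq2 1.42.0, limma 3.58.1 (voom, and log2 FPKM with pseudocounts of 1 and 0.1), a replicate block, and leaving out each library. The crossed block was added after seeing the data.

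The members and lists were chosen with earlier results of these data known. Named were all members, the called genes of each list (at most 4) or else its 3 highest by FPKM, and the 3 genes most like each member. One gene that this rule names is not reported here. Anxa2, Anxa1, Cacybp and Myh9 as ratio partners, the motif letters, and genes named in the closing section were chosen after the files were seen. Protein sequences were not used here.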

Additional observations from a re-analysis of the deposited data

How the results depend on the processing

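With all libraries kept, the 8 log2 fold changes kept their direction in 96 of 96 combinations of member and alternative, 0 of them called, with a lowest adjusted p of 0.103. The alternative that took the members' counts out of the library size gave the values of the main fit (S100a8 0.2348 in both), since TMM scaling followed. Its combinations could therefore not turn. The other settings that keep all libraries rest on the same counts, so the 96 are not independent checks. For S100a8 the replicate block and the crossed block both gave 0.242. Among 32 combinations that left out a library, 5 turned: S100a6 to 0.155 and S100a1 to 0.0558 without DMSO 1, S100a13 to -0.0989 without DMSO 2, and S100a4 to 0.122 and S100a1 to 0.112 without Aβ40 1. Over these fits the log2 fold change ran from -0.595 to 0.155 for S100a6, -0.0989 to 1.05 for S100a13, -0.307 to 0.112 for S100a1 and -0.790 to 0.122 for S100a4. The count of members called ran from 0 to 3 over the fits that left out a library. It was 3 without DMSO 1 (S100a9, S100a10 and S100a13, all higher), in a fit that called 8.93% of all tested genes. It was 1 without DMSO 2 (S100a6, lower), in a fit that called 7.16% of all tested genes. Calls therefore rest on which DMSO library is kept. Each of these fits leaves 1 DMSO library, so the calls are not read as results about single members. Over all genes the 17 calls became 138 with DESeq2, 255 with no filter on low counts, 0 with limma on log2 FPKM at either pseudocount, and 0 to 1276 when a library was left out; the cause was not tested. The replicate number as a block gave 27 calls and 0 members. Deviations of same-numbered libraries correlated at -0.187 over genes, and the crossed pairing as a block gave 721 calls and 0 members. As a share of summed FPKM, the difference for the 8 members was 3.06 percentage points. FPKM divides each count by gene length, so this is a share of another total than the 1.46 points in counts. Depth limits S100a4, with 36 to 75 counts.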

Other observations

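Some partners of S100 proteins, and 1 other EF-hand gene, stood far from 0 without passing the adjustment over all genes, and were picked out after their values were seen. Ager, the gene of RAGE, a receptor of several S100 proteins, was at 8.62 ± 1.08 CPM in the DMSO group and 3.82 ± 1.18 in the Aβ40 group (SD, n = 2 each), with log2 fold change -1.17 (SE 0.33; edgeR adjusted p = 0.283). Cd33, a sialic acid-binding receptor that S100A9 can engage, was at 1167 ± 37.2 and 736 ± 25.7 CPM, a log2 fold change of -0.66 (SE 0.18; edgeR adjusted p = 0.276). Ly96, the MD-2 partner of Toll-like receptor 4, was at -0.62 (SE 0.21), while Tlr4 itself was at 0.26 (SE 0.28). Il1a, whose product leaves cells with the help of S100A13, was at 2.47 ± 1.75 and 6.64 ± 1.85 CPM, a log2 fold change of 1.42 (SE 0.50; edgeR adjusted p = 0.342). Efhd2, an EF-hand protein of the actin skeleton, was at 346 ± 36.4 and 229 ± 6.93 CPM, a log2 fold change of -0.59 (SE 0.18). For Ager, Cd33, Ly96, Il1a and Efhd2 the groups did not overlap, as for 45.1% of tested genes.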
